A study of Mus musculus with 6 samples.

Results

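Metabotropic glutamate receptors and the carriers that load glutamate into vesicles or clear it were examined in mouse lumbar dorsal root ganglia, which hold the cell bodies of sensory neurons wrapped by glia. The set held 9 named genes of the 36793 gene identifiers in the deposited table: the receptors Grm3, Grm4, Grm5, Grm7 and Grm8, the plasma membrane transporters Slc1a1 and Slc1a2, and the vesicular transporters Slc17a6 and Slc17a7. They are defined by name, with no threshold on measured values, but the set was proposed with earlier results of these data known. RNA was sequenced from 3 knockout mice, numbered 4 to 6, and from 3 wild-type mice, numbered 1 to 3. The knockout is labelled as lacking the NMDA receptor, and the series title places the deletion of the gene for its GluN1 subunit in Schwann cells, which ensheathe peripheral axons. The sources used here do not give the driver of the deletion, the strain, sex and age of the mice or any treatment.

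Each library was treated as whole ganglion tissue, since the labels give dorsal root ganglion as the source, although they also carry a cell type entry of Schwann cells. Markers of neurons were high in all 6 libraries: Tubb3, a neuronal tubulin, was at 2689 to 3601 TPM (a transcript's length-corrected share, scaled to 1000000 per library). In such bulk samples, fewer cells of a type and less RNA per cell cannot be told apart. Total expected counts per library ran from 28536700 to 36249163 in the knockout and from 28526704 to 32719517 in the wild type. Knockout libraries 5 and 6 differed by no more than sampling noise, at a mean chi-square of 1.15 over 10258 genes, of which 0 differed, against 13.2 to 104 and 3382 to 7317 genes for the other 14 pairs of libraries. They were counted as 1 sample, so n = 2 for knockout and n = 3 for wild type. The labels describe the animals by number alone, so the tests measure the spread between these samples.

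Glutamate is the main fast transmitter of primary sensory neurons. It is packed into synaptic vesicles by the vesicular transporters encoded by Slc17a6, Slc17a7 and Slc17a8, and removed from the extracellular space by sodium-driven transporters of the Slc1a family on neurons and glia. Metabotropic receptors are G protein-coupled receptors of 3 groups. Group I receptors such as Grm5 act through Gq and phospholipase C, while Grm2 and Grm3 (group II) and Grm4, Grm6, Grm7 and Grm8 (group III) act through Gi/o and lower cyclic AMP. Group II and group III receptors commonly restrain transmitter release from nerve terminals.

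Setting knockout against wild type asks what differs in ganglion RNA when the NMDA receptor is deleted. Of the 9 genes, 0 passed the edgeR quasi-likelihood test at an FDR of 0.05 over all genes, where 16 of 16809 genes (0.0952%) passed, 10 higher (0.0595%) and 6 lower (0.0357%). All 9 genes passed the filter on low counts and were tested. At an unadjusted p under 0.05 there was 1 of the 9, Slc1a1, against 9.14% of all genes. With DESeq2 0 of the 9 passed, against 1.52% of all genes. With the 6 libraries counted separately 0 passed in edgeR, against 0.871%, and in DESeq2 1 passed, Slc1a1, against 5.25%. After the correction for GC content described below, 0 of the 9 passed, against 0.155% of all genes, and 0 again with the 6 libraries counted separately, against 2.41%. The knockout libraries did not overlap the wild-type libraries for 3 of the 9, Grm5 and Slc1a1 above and Slc17a6 below, where the groups did not overlap for 24.2% of all genes (10.1% with the knockout above and 14.1% with it below). After GC correction there were 2, Grm5 and Slc1a1, against 25.2% of all genes and 12.1% with the knockout above. The log2 fold changes (knockout over wild type) were positive for 6 and negative for 3, with a median of 0.14, where the median over all genes tested was 0.00.

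By length-normalised level the 9 genes spanned more than 2 orders of magnitude. Over the 5 samples the order of mean TPM was Slc17a6 (149 ± 8.94, SD, n = 5), Slc17a7 (110.3 ± 39.9), Grm7 (42.8 ± 4.41), Grm8 (12.9 ± 1.79), Grm4 (9.78 ± 4.16), Slc1a1 (4.96 ± 1.00), Slc1a2 (1.81 ± 0.181), Grm3 (0.804 ± 0.193) and Grm5 (0.486 ± 0.197). The neighbours Slc17a6 and Slc17a7 did not keep their order, since Slc17a6 was the higher in 4 of 5 samples. Nor did Grm8 and Grm4, with Grm8 the higher in 4 of 5. Every other neighbouring pair kept its order in 5 of 5 samples.

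**Figure D1:**
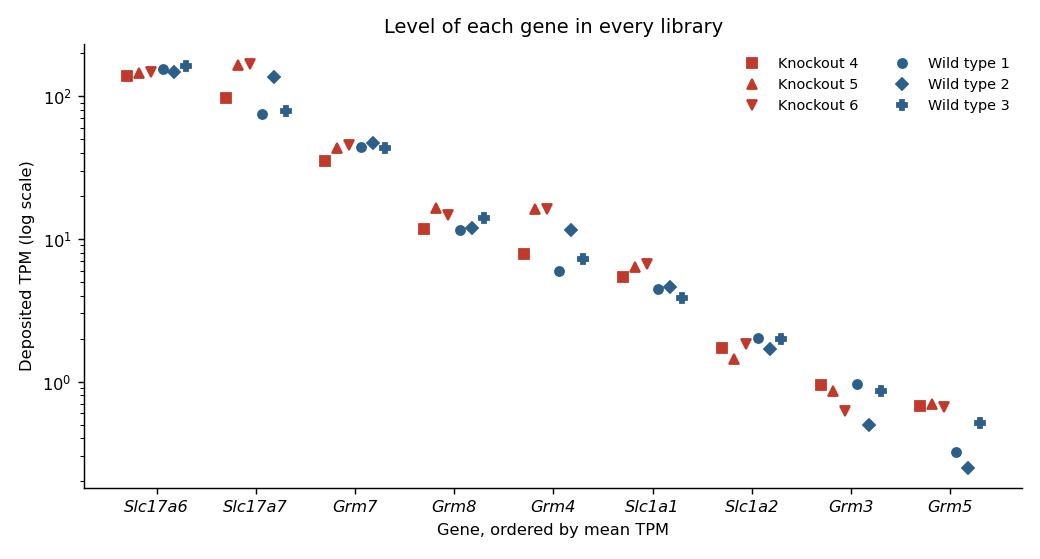
Deposited TPM of the 9 genes on a log axis, 1 point per library, with knockout libraries 4 to 6 in red left of wild-type libraries 1 to 3 in blue. Slc17a7 and Grm4 were high in knockout 5 and 6 and wild type 2, while the 3 knockout points of Grm5 and Slc1a1 lay above all wild-type points.

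Of the vesicular transporters, Slc17a6 (chromosome 7, 51622006 to 51671119, GRCm38, plus strand), used by most sensory neurons, was the steadiest of the 9 genes. It was at 278, 278 and 281 CPM (TMM-normalised counts per 1000000) in knockout libraries 4, 5 and 6 and at 302, 293 and 314 CPM in wild-type libraries 1, 2 and 3. All knockout libraries were below all wild-type libraries, but by little: the log2 fold change was -0.12 (standard error, SE, 0.10, edgeR adjusted p = 0.719).

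Slc17a7 (chromosome 7, 45163949 to 45176142, plus strand), the vesicular transporter known from large-diameter sensory neurons, varied 2.20-fold between libraries, with the genotypes overlapping. It was at 131, 216 and 217 CPM in knockout libraries 4, 5 and 6 and at 98.6, 183 and 102 CPM in wild-type libraries 1, 2 and 3. Knockout 5 and 6 and wild type 2 were high, knockout 4 and wild type 1 and 3 were low, and the groups overlapped. Its log2 fold change was 0.44 (SE 0.33, edgeR adjusted p = 0.70), and it was 0.036 when knockout 5 and 6 were left out. The ratio of Slc17a7 to Slc17a6 in TPM was 0.70, 1.15 and 1.14 in knockout 4, 5 and 6 and 0.484, 0.927 and 0.484 in wild type 1, 2 and 3.

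The 2 transcripts differ in base composition. Their coding sequences, of 1680 bases for Slc17a7 and 1746 for Slc17a6, were identical at 71.1% of aligned bases, yet the whole transcript of Slc17a7 held 58.5% G and C and that of Slc17a6 42.9%. At the third position of codons the shares were 74.3% and 55.3%. Shown is the ungapped 150-base coding stretch, in exon 12 of both genes, with the largest difference in G and C among those with at least 70% identity, so its difference was chosen and is an illustration. It is chr7:45174754-45174903 for Slc17a7 and chr7:51669028-51669177 for Slc17a6, both on the plus strand of GRCm38 as in the GENCODE vM21 transcripts. Capitals mark the 40 positions where the genes differ, at which Slc17a7 has G or C 34 times and Slc17a6 12 times.
Slc17a7: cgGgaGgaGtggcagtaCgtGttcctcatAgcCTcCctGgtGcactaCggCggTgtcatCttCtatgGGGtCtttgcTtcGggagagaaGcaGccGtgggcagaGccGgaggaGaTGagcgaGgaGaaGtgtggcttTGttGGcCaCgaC
Slc17a6: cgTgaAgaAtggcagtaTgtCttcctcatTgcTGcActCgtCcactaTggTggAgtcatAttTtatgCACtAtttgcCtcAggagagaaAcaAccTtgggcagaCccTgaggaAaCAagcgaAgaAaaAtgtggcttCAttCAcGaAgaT

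The libraries differed in how level followed GC content over all genes. Per 10 percentage points of GC, the log2 deviation of a gene from its mean over the 6 libraries changed by -0.08, 0.15 and 0.16 in knockout 4, 5 and 6 and by -0.23, 0.13 and -0.13 in wild type 1, 2 and 3 (16681 genes with a GC value). The libraries with a positive slope were thus knockout 5 and 6 and wild type 2, the same 3 in which Slc17a7 was high. Each library's trend was smoothed over GC content and removed, an alternative added after seeing the data. Slc17a7 was then at 139, 194 and 195 CPM in knockout 4, 5 and 6 and at 114, 169 and 111 CPM in wild type 1, 2 and 3. The highest library was 1.75 times the lowest, against 2.20 times before, and the same 3 libraries were still the highest. Slc17a6, at the other end of GC content, had a log2 fold change of -0.02 after the correction, and its groups overlapped. The part of GC content in the levels of the 9 genes was not tested.

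**Figure D2:**
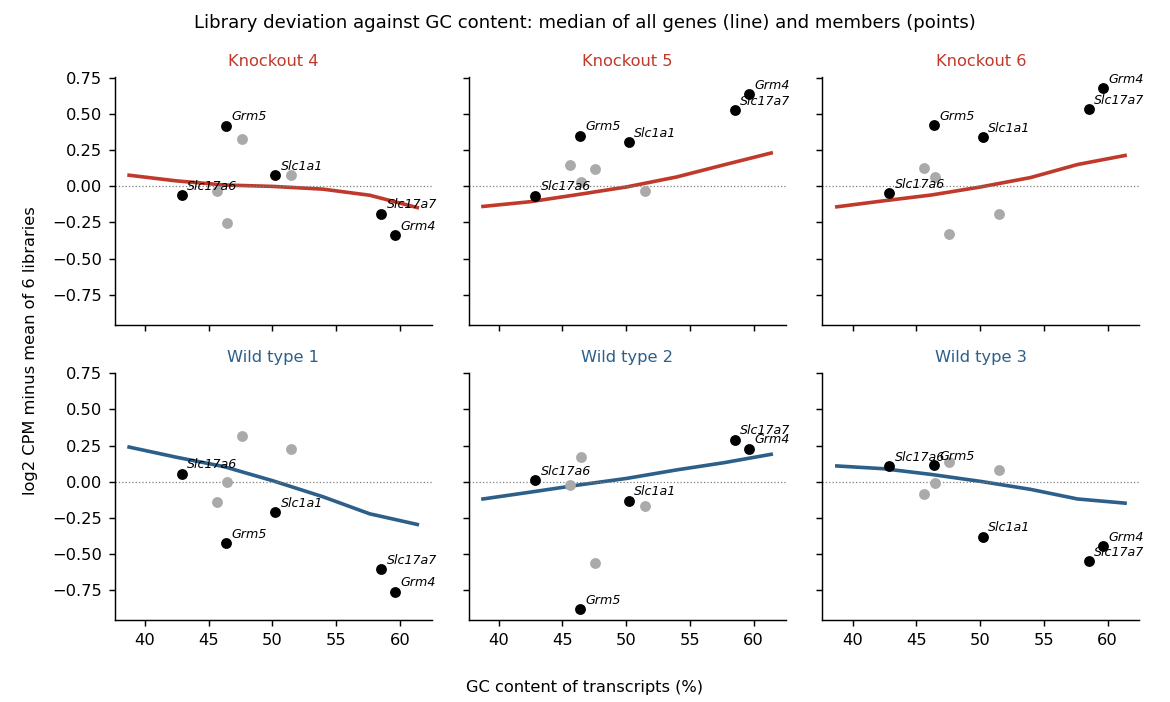
Deviation of log2 CPM from the mean of the 6 libraries against transcript GC content in percent, 1 panel per library, knockout above and wild type below. Lines join the medians of all genes in 7 bins of GC content, and points are the 9 genes, of which 5 are named. In knockout 5 and 6 and wild type 2 the line rises with GC content and Grm4 and Slc17a7, at 59.6% and 58.5% GC, lie above it, while in the other 3 libraries the line falls and they lie below it.

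Markers of large-diameter neurons were set beside Slc17a7. Their summed level over 8 genes was 3676 to 4887 CPM in the knockout and 2612 to 4009 CPM in the wild type. Of the 8, 7 were positive and 0 passed, with a median log2 fold change of 0.27. Most of the sum came from Nefh (58.4% GC), at 2973 to 4148 CPM in the knockout and 1976 to 3346 CPM in the wild type. After GC correction the sums were 3842 to 4502 CPM in the knockout and 2889.7 to 3765 CPM in the wild type. Markers of neurons in general, 10 genes, summed to 16626 to 18478 CPM in the knockout and 14029 to 17594 CPM in the wild type, with a median of 0.06. Those of small-diameter neurons, 8 genes, summed to 3328 to 3643 CPM in the knockout and 3372 to 3869.8 CPM in the wild type, with a median of -0.17. The part of these in the level of Slc17a7 was not tested.

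Slc17a8, the vesicular transporter of C-low-threshold mechanoreceptors and no member of the set, completes the family. It was at 10.2, 11.8 and 12.5 CPM in knockout 4, 5 and 6 and at 23.0, 21.5 and 22.4 CPM in wild type 1, 2 and 3. Every knockout library was below every wild-type library, and the level was 1.99-fold lower in the knockout (log2 fold change -0.99, SE 0.13, edgeR adjusted p = 0.0935). It did not pass at 0.05 here, nor in limma-voom (adjusted p = 0.0592), after GC correction (edgeR adjusted p = 0.0828) or with other scalings. It passed in DESeq2 (adjusted p = 7.5e-07) and in edgeR without the filter on low counts (adjusted p = 0.0137). With the 6 libraries counted separately, where knockout 5 and 6 count as separate animals, it also passed (edgeR adjusted p = 0.0132). Th, the enzyme of catecholamine synthesis that also marks these neurons, fell, to 35.01 ± 0.00545 CPM (SD, n = 2) in the knockout, against 98.4 ± 10.6 CPM (SD, n = 3) in the wild type (log2 fold change -1.49, edgeR adjusted p = 0.0251). Th was named after its value was seen, and no other marker of these neurons was set beside Slc17a8. The part of these neurons' number in the level of Slc17a8 was not tested. Of the TPM of the 3 vesicular transporters, Slc17a8 made up 2.04, 1.88 and 1.97% in knockout 4, 5 and 6 and 4.73, 3.55 and 4.62% in wild type 1, 2 and 3, groups that did not overlap. The share of Slc17a7 was 40.3, 52.5 and 52.3% in the knockout and 31.1, 46.4 and 31.1% in the wild type, groups that did.

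**Figure D3:**
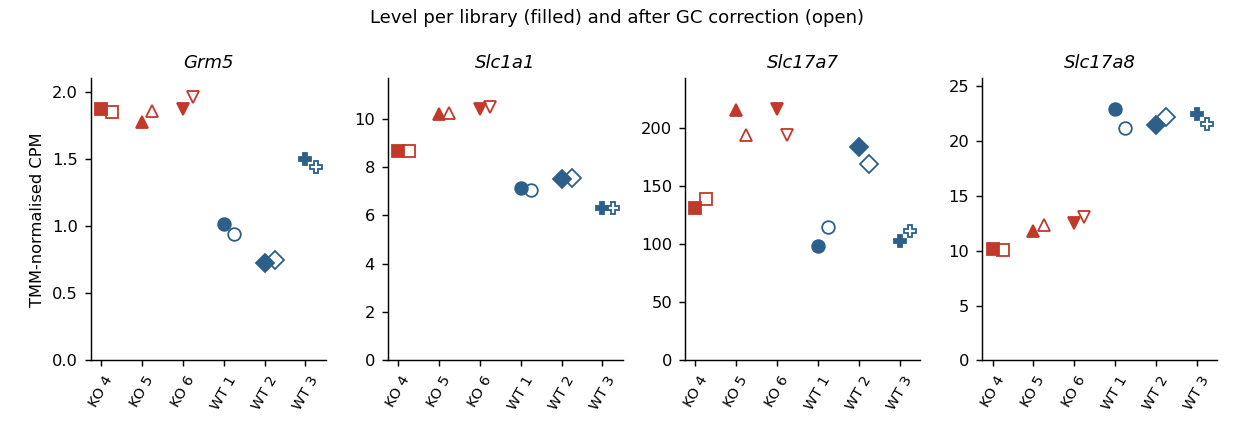
Level in CPM, from 0, of Grm5, Slc1a1, Slc17a7 and Slc17a8 in each library (filled symbols) and after GC correction (open symbols), with knockout in red left of wild type in blue. The knockout libraries lay above the wild type for Grm5 and Slc1a1, below it for Slc17a8, and overlapped it for Slc17a7.

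Among the receptors, group III made up nearly all of the RNA: 96.9 to 98.03% of the summed TPM of the 8 receptor genes in the knockout and 97.6 to 98.8% in the wild type. Grm7 (chromosome 6, 110645581 to 111567230, plus strand), a presynaptic receptor of low glutamate affinity, was the most abundant. It was at 57.1, 69.7 and 71.2 CPM in knockout 4, 5 and 6 and at 68.1, 76.8 and 67.9 CPM in wild type 1, 2 and 3, with knockout 4 the lowest and the groups overlapping. Its log2 fold change was -0.15 (SE 0.13, edgeR adjusted p = 0.732). As a share of receptor TPM, Grm7 was 62.2, 55.6 and 58.1% in the knockout and 69.9, 65.9 and 65.6% in the wild type, groups that did not overlap. This share also depends on the other receptors. Among these, Grm4 was at 7.89, 16.24 and 16.21 TPM in the knockout and 6, 11.57 and 7.21 TPM in the wild type. The expected counts of Grm7 were not whole in any library, so RSEM divided part of its reads with other transcripts. Gm20387, an annotated gene on the opposite strand, overlaps its exons and was at 3.79 to 4.32 CPM in the knockout and 4.44 to 4.78 CPM in the wild type. The strand setting of the quantification is not given in the sources used here, so reads from these 2 genes may not be fully separated.

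Grm8 (chromosome 6, 27275119 to 28135178, minus strand), another presynaptic group III receptor, was at 19.2, 21.8 and 21.5 CPM in knockout 4, 5 and 6 and at 17.9, 19.4 and 18.6 CPM in wild type 1, 2 and 3. Knockout 4 lay within the wild-type range, and the log2 fold change was 0.14 (SE 0.12, edgeR adjusted p = 0.72). The level varied little, with the highest library 1.22 times the lowest.

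Grm4 (chromosome 17, 27422387 to 27521403, minus strand), the third detected receptor of group III, followed the libraries as Slc17a7 did. It was at 15.9, 31.2 and 32.1 CPM in knockout 4, 5 and 6 and at 11.8, 23.5 and 14.7 CPM in wild type 1, 2 and 3. Knockout 4 lay within the wild-type range, and the log2 fold change was 0.52 (SE 0.37, edgeR adjusted p = 0.688). The sign turned to -0.071 when knockout 5 and 6 were left out. After GC correction the highest library was 2.03 times the lowest, against 2.71 times before. The corrected values were 17.1, 27.6 and 28.4 CPM in knockout 4, 5 and 6 and 14.0, 21.4 and 16.1 CPM in wild type 1, 2 and 3, so knockout 5 and 6 and wild type 2 remained the highest.

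Grm5 (chromosome 7, 87584168 to 88134907, plus strand), the group I receptor coupled to phospholipase C, had the largest log2 fold change of the 9 genes at one of the lowest levels. It had 55, 62 and 60 expected counts in knockout 4, 5 and 6 and 34, 23 and 44 in wild type 1, 2 and 3. In CPM these were 1.87, 1.78 and 1.88 in the knockout and 1.02, 0.724 and 1.503 in the wild type. The 3 knockout libraries, of which 5 and 6 count as 1 sample, lay above all wild-type libraries, among which wild type 3 was nearest. The log2 fold change was 0.78 (SE 0.33) with a 95% interval from -0.02 to 1.57, and it did not pass (edgeR adjusted p = 0.554). It was 0.85 after GC correction, 0.56 without wild type 2 and 1.08 without wild type 3. On the log2(TPM + 0.5) scale, where the pseudocount is near the gene's own level, it was 0.46.

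Grm3 (chromosome 5, 9485541 to 9725170, minus strand), a group II receptor, had 26 to 52 expected counts per library. It was at 1.57, 1.35 and 0.970 CPM in knockout 4, 5 and 6 and at 1.56, 0.818 and 1.37 CPM in wild type 1, 2 and 3. The groups overlapped, and the log2 fold change was 0.12 (SE 0.34, edgeR adjusted p = 0.924). Its sign turned without wild type 2, without knockout 4 and in limma-voom. Grm2 and Grm6 did not pass the filter on low counts and were at or below 0.11 TPM in every library.

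**Figure D4:**
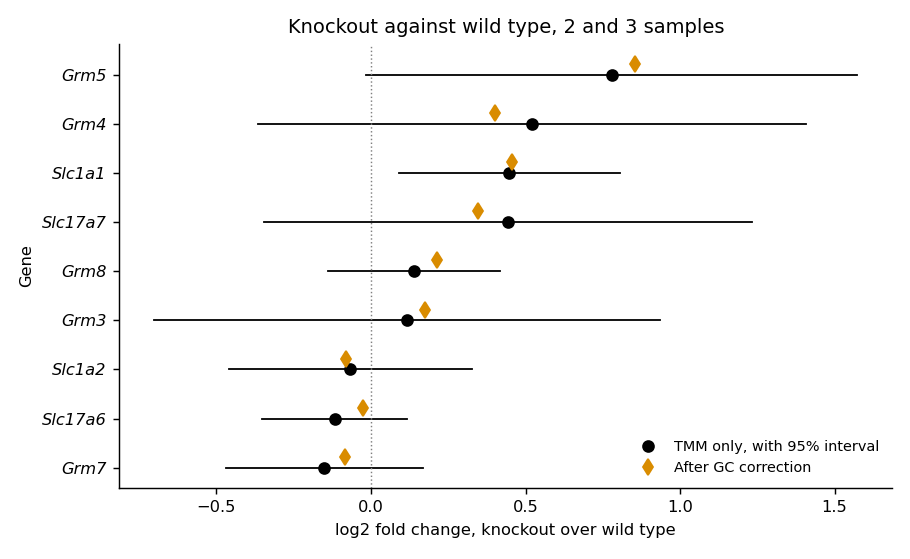
log2 fold change of knockout over wild type for the 9 genes, with its 95% interval from edgeR (black, n = 2 and 3 samples) and the value after GC correction (orange diamonds). The interval of Slc1a1 lay above 0 before adjustment over all genes, that of Grm5 reached down to -0.02, and the other 7 crossed 0.

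Of the plasma membrane transporters, Slc1a1 (chromosome 19, 28835049 to 28913960, plus strand), the neuronal glutamate and cysteine carrier, was higher in each knockout library than in any wild-type library. It was at 8.68, 10.2 and 10.4 CPM in knockout 4, 5 and 6 and at 7.12, 7.52 and 6.32 CPM in wild type 1, 2 and 3. The difference was 1.36-fold, a log2 fold change of 0.45 (SE 0.15) with a 95% interval from 0.09 to 0.80, and it did not pass over all genes (edgeR adjusted p = 0.465). With 6 libraries in DESeq2, where knockout 5 and 6 count as separate animals, it passed (adjusted p = 0.0323). The log2 fold change was 0.46 after GC correction. 4430402I18Rik, on the opposite strand, overlaps Slc1a1 exons and was at 1.28 to 1.60 CPM in the knockout and 0.922 to 1.73 CPM in the wild type. Its groups overlapped, with a log2 fold change of 0.12.

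Slc1a2 (chromosome 2, 102658659 to 102790784, plus strand), the main glutamate transporter of astrocytes in the brain and spinal cord, was low in the ganglion. It was at 7.89, 7.32 and 6.54 CPM in knockout 4, 5 and 6 and at 8.73, 6.64 and 7.93 CPM in wild type 1, 2 and 3. The groups overlapped, and the log2 fold change was -0.07 (SE 0.16, edgeR adjusted p = 0.909), turning sign without wild type 1 and without knockout 5 and 6. Of 10 markers of spinal cord cells 3 passed the filter, and 0 of these passed the test. All 10 summed to 29.6 to 30.8 CPM in the knockout and 28.1 to 32.3 CPM in the wild type, nearly all of it from Aqp4 and Aldh1l1, genes of astrocytes that other glia can also make. Opalin, a gene of central myelin, was at 0 in all knockout libraries and at 0 to 0.0315 CPM in the wild type.

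The other glial transporter, Slc1a3, was the most abundant plasma membrane glutamate transporter. It was at 23.1, 21.5 and 20.03 CPM in knockout 4, 5 and 6 and at 17.6, 17.1 and 19.3 CPM in wild type 1, 2 and 3. These did not overlap, with a log2 fold change of 0.29 (SE 0.12, edgeR adjusted p = 0.537). The summed TPM of the 5 transporters of this kind was 23.8, 24.5 and 24.96 in the knockout and 21.9, 23.0 and 21.7 in the wild type. Slc1a1 made up 22.6, 25.8 and 26.6% of it in the knockout and 20.3, 20.1 and 17.9% in the wild type, while Slc1a6, the transporter known from Purkinje cells, made up 18.6 to 21.3% in the knockout and 24.9 to 33.2% in the wild type. Neither pair of groups overlapped, but both shares are of the same total, so they are not independent. The log2 fold change of Slc1a6 itself was -0.39 (SE 0.21, edgeR adjusted p = 0.61).

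Glutamate genes around the set were read from the same test. Of 59 listed genes 56 were tested and 0 passed in edgeR, with 34 positive, 22 negative and a median log2 fold change of 0.10. The groups did not overlap for 12 of the 56, against 24.2% of all genes. An unadjusted p under 0.05 was reached by 5 of the 56, against 9.14% of all genes, and DESeq2 called 2, Slc17a8 and Kcnj10, against 1.52% of all genes. The other carriers, 8 genes, had 6 positive and 2 negative and a median of 0.30. After Slc17a8 the smallest p belonged to Slc1a3 and to Slc1a5, a neutral amino acid and glutamine carrier, at 46.4 ± 5.39 CPM (SD, n = 2) in the knockout and 37.2 ± 3.86 CPM (SD, n = 3) in the wild type.

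The enzymes and carriers of glutamate and glutamine metabolism, 16 genes, had 11 positive and 5 negative and a median of 0.17. Slc38a1, a glutamine carrier of neurons, was at 66.9, 96.0 and 96.7 CPM in knockout 4, 5 and 6 and at 51.7, 66.7 and 53.8 CPM in wild type 1, 2 and 3. Knockout 4 was level with wild type 2 (log2 fold change 0.51, SE 0.19, edgeR adjusted p = 0.508). Glul, glutamine synthetase of glia, averaged 434 ± 40.8 CPM (SD, n = 2) in the knockout and 358 ± 49.2 CPM (SD, n = 3) in the wild type. Aldh18a1, an enzyme that turns glutamate towards proline, averaged 32.2 ± 2.72 CPM (SD, n = 2) in the knockout and 25.7 ± 4.93 CPM (SD, n = 3) in the wild type.

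Scaffolds and signal transducers of the receptors, 25 genes, had 12 positive and 13 negative and a median of -0.00. Rgs4, which speeds the switching off of Gi/o and Gq, was at 1197, 1117 and 1120 CPM in knockout 4, 5 and 6 and at 1673, 1414 and 1813 CPM in wild type 1, 2 and 3. All knockout libraries were below all wild-type libraries (log2 fold change -0.49, SE 0.14, edgeR adjusted p = 0.372). The scaffolds Shank2 and Grasp were at 0.47 and 0.53 on the log2 fold change scale, with overlapping groups.

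The 7 partners of the transporters had a median of 0.08. Kcnj10, the potassium channel that sets the membrane potential of satellite glia, was at 98.1, 126 and 122 CPM in knockout 4, 5 and 6 and at 70.5, 75.7 and 72.1 CPM in wild type 1, 2 and 3. The groups were well apart, with a log2 fold change of 0.61 (SE 0.13, edgeR adjusted p = 0.258, and 0.0075 in DESeq2). Arl6ip5, a protein that binds glutamate transporters, was at -0.13 on the same scale.

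**Figure D5:**
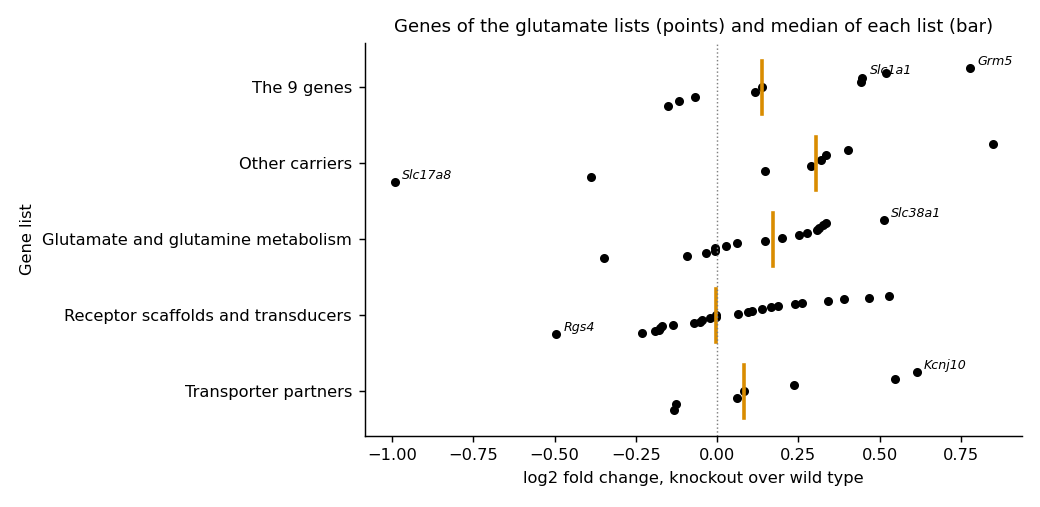
log2 fold change of knockout over wild type for each tested gene (points, spread vertically for sight) of the 9 genes and of 4 lists of glutamate genes, with the median of each list as a bar. Slc17a8, at -0.99, lay lowest of all and Kcnj10, at 0.61, highest in its list.

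Markers of other cells were read from the same test, and their part in the levels of these genes was not tested. Kcnj10, named above, is also among the satellite glia markers. Among satellite glia markers 7 of 7 were positive (median log2 fold change 0.22, 0 passing), and these summed to 2766 to 3199.7 CPM in the knockout and 2519 to 2649 CPM in the wild type. After GC correction these sums overlapped, at 2566 to 3362 CPM in the knockout and 2373 to 2907 CPM in the wild type. Most of the uncorrected sums came from Apoe, at 2083 to 2436 CPM in the knockout and 1989 to 2038 CPM in the wild type. Among Schwann cell markers 9 of 10 were positive (median 0.33, 0 passing), and these summed to 5848 to 5913 CPM in the knockout and 4613 to 5357 CPM in the wild type. After GC correction they were 5691 to 5939.7 CPM in the knockout and 4761 to 5469 CPM in the wild type. In the sensory neuron injury response, a list chosen with results of these samples known, 8 of 20 passed in edgeR, all higher, where 0.0595% of all genes passed as higher. It summed to 758 to 777 CPM in the knockout and 359.8 to 416 CPM in the wild type. Erythroid and muscle genes summed to 3954 to 15060.5 CPM in the knockout, with knockout 4 the highest, and 3181 to 5915 CPM in the wild type. Without knockout 4, which leaves a lone knockout sample, the log2 fold change of Grm5 was 0.77 and that of Slc1a1 0.57.

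Grm4, Grm5 and Slc17a7 had the widest range over the 6 libraries, at 1.43, 1.302 and 1.14 log2 units. The genes with the most similar pattern were sought among 13408 named protein-coding genes with a mean of at least 1 CPM by the root mean square difference of centred log2 CPM over the 6 libraries. They were Rnf157, Vars and Fasn for Grm4, at 0.04 to 0.05 log2 units. For Slc17a7 they were Zyx, Phospho1 and Cacng2, also at 0.04 to 0.05. For Grm5 they were Adgrl4, Klf12 and Fzd4, at 0.07 to 0.11. The 6 neighbours of Grm4 and Slc17a7 had a GC content of 51.2 to 63.5%, and the 3 of Grm5 of 44.8 to 51.1%. Since libraries 5 and 6 are near-identical, the 6 points are not independent.

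RSEM gives a gene length per library that weights the gene's transcripts by their estimated abundance, so it moves with the isoform mix. Slc17a6, Slc17a7 and Grm3 had 1 transcript each in the table and a fixed length. Grm5 had 5 transcripts and a length of 5939.8, 5706 and 6393 bases in knockout 4, 5 and 6 and 6896, 6213 and 6538 bases in wild type 1, 2 and 3. The groups overlapped only through knockout 6, which was above wild type 2 and also apart from the near-identical knockout 5. For Slc1a2, with 12 transcripts, the near-identical libraries 5 and 6 gave 11168 and 8019 bases, farther apart than the wild-type libraries at 8485 to 9421 bases. For Grm8 they gave 2975 and 3298 bases, against 2988 to 3539 bases in the wild type.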

How the data were processed

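Lumbar ganglion RNA (RIN above 8.0, stranded mRNA kit, per the labels' protocols) was sequenced, and the submitters' processing notes list Trimmomatic 0.38, STAR 2.6.0a, RSEM 1.3.0 and the GRCm38 build. The sources used here name neither the annotation release nor the strand setting. As deposited by the authors, the table holds RSEM's expected counts per gene, which are not normalized, TPM values that summed to about 1000000 per library, and gene lengths. Symbols, positions and GC content (unweighted mean over a gene's listed transcripts) came from GENCODE vM21 on GRCm38, and 35243 of 36793 identifiers matched a symbol.

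Expected counts were rounded, libraries 5 and 6 summed, filtered with filterByExpr, scaled by TMM and tested by quasi-likelihood in edgeR 4.0.16 (R 4.3.3, two-sided, genotype only, Benjamini-Hochberg adjustment over all genes, FDR 0.05). A standard error (SE) is the size of the log2 fold change over the root of its F statistic, and intervals use the test's degrees of freedom. CPM per library use factors from the 6 libraries, group means those of the 5 samples. TPM of libraries 5 and 6 were averaged. On simulated data with 16580 genes for this comparison, 69 of 100 genes changed by 1 log2 unit and 97 of 100 changed by 2 were recovered, with 12 false calls. The estimates of the 9 genes were all under 1 log2 unit, a size that these figures do not cover.

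Alternatives were other scalings, no filter, DESeq2 1.42.0, limma 3.58.1 (voom, log2(TPM + 0.5) and log2(TPM + 0.1)), other ways of counting libraries 5 and 6, left-out replicates, FDR 0.10 and a loess GC correction (span 0.3). The 9 genes and all lists were chosen with earlier results of these data known. Named are the 9 genes, up to 3 genes with the smallest p per glutamate list and any that passed, and the 3 nearest patterns of the 3 members with the widest range. Slc1a6, Th, Opalin, Aqp4, Aldh1l1 and Tubb3 were named after their values were seen. Some genes that the rule or the lists include are not reported here.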

Additional observations from a re-analysis of the deposited data

How the results depend on the processing

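No paired analysis was possible because each number from 1 to 6 occurs in a single group. GC correction was an alternative added after seeing the data. In place of 16 genes called there were 81 without a filter, 255 in DESeq2, 27 in limma-voom, 144 with 6 libraries counted separately, 868 with these in DESeq2, 26 with GC correction, 398 with GC correction and 6 libraries, and 30 at an FDR of 0.10. Leaving out replicates gave 7 to 16. Loosening the FDR adds calls by construction. Counting the near-identical libraries as separate animals treats 1 sample as 2, and the filter then kept 16535 genes in place of 16809. The causes of the other changes in calls were not tested. Of the 9 genes, 1 was called with 6 libraries in DESeq2 (Slc1a1) and 0 under every other alternative, 0 also with replicates left out. Of the glutamate lists, 0 genes were called, but 1 with no filter, 2 with DESeq2, 2 with 6 libraries, 5 with 6 libraries in DESeq2, 2 with GC correction and 6 libraries, and 1 at an FDR of 0.10. Leaving out replicates gave 0 to 0.

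Directions turned for Grm3 at 0.12, to -0.033 in limma-voom, -0.11 without wild type 2 and -0.09 without knockout 4. They turned for Grm4 at 0.52, to -0.071 without knockout 5 and 6, and for Slc1a2 at -0.07, to 0.044 without wild type 1 and 0.023 without knockout 5 and 6. The cause was not tested. With replicates left out, Grm3 ran from -0.11 to 0.33, Grm4 from -0.071 to 0.93 and Slc1a2 from -0.17 to 0.044. Among 171 values of the 9 genes, 164 held their direction and call, 6 turned and 1 gained the call. Without knockout 4, or without 5 and 6, a lone knockout sample remained, assumed to vary like the wild type. Slc17a7 ran from 0.036 without knockout 5 and 6 to 0.80 without wild type 2. Slc17a8 ran from -1.13 without knockout 5 and 6 to -0.87 without knockout 4. Depth limits Grm5 and Grm3, with 23 to 62 and 26 to 52 counts per library.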
